A study of Mus musculus with 12 samples.

Results

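The proteasome genes of mouse haematopoietic stem cells are described here, library by library, in cells from 2 Cd38 genotypes, at 2 ages and after activation by cytokines. The genes were taken by symbol, as Psma, Psmb, Psmc, Psmd, Psme, Psmf or Psmg followed by a number, with 50 or more counts summed over the 12 libraries. That gave 47 genes of the 35976 in the count files. The member just above the minimum was Psma8 with 364 counts, followed by Psmd9 with 545, and the only matching symbol under it was Psmb11, a subunit of the thymus, with 0 counts. By role there were 7 genes of the core alpha ring, 7 of the core beta ring, 5 of the immunoproteasome, 6 ATPases and 11 other subunits of the regulatory cap, 7 assembly chaperones, 2 other activators, 1 inhibitor and 1 tissue-restricted core subunit.

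The proteasome is the protease that degrades proteins tagged with ubiquitin. Its barrel-shaped core is built of outer rings of alpha subunits, which gate the entrance, and inner rings of beta subunits, of which Psmb5, Psmb6 and Psmb7 encode those that cut peptide bonds. The regulatory cap binds tagged proteins, removes the ubiquitin and unfolds the protein with a ring of ATPases. In blood cells and under interferon, the beta subunits made from Psmb8, Psmb9 and Psmb10 can take the places of the catalytic ones, and the resulting immunoproteasome, with the activator made from Psme1 and Psme2, is known for cutting peptides for antigen presentation. Stem cells are known to be sensitive to changes in protein breakdown.

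The cells were haematopoietic stem cells sorted as lineage-negative cells that carry c-Kit and Sca-1, a gate that also holds multipotent progenitors. Wild-type (WT) animals and animals labelled knockout (KO) for Cd38 were compared; the product of this gene is a surface enzyme that breaks down NAD, and the KO label names no deleted exon, promoter or Cre. Cells were freshly isolated at 2 months of age (young fresh), freshly isolated at 24 months (old fresh), or taken at 2 months and kept for 24 hours with cytokines outside the body (stimulated), and each of these conditions had 2 WT and 2 KO libraries. The cytokines are not named in the labels, and no stimulated group came from old animals. Nothing in the labels states whether the libraries came from separate animals or pools, so p-values measure only the spread between these samples. The stated purpose was to learn what CD38 does in stem cells at rest, during ex vivo activation and in age.

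Libraries held 1600155 to 1963635 counts in young fresh, 2692245 to 3249721 in stimulated and 3796591 to 5164720 in old fresh cells, so age cannot be told apart from depth or from whatever else set the library sets apart. Replicates of stimulated cells lay close together, with a common dispersion of 0.0327 in WT and 0.0391 in KO against 0.963 to 1.34 in the fresh groups. Cd38 was counted in every library, at 17.5 and 24.5 CPM (counts scaled to a common library total, here without TMM) in young fresh WT against 62.6 and 31.7 in young fresh KO, 1.07 and 9.28 against 4 and 2.6 in stimulated cells, and 67.2 and 36.3 against 12.1 and 18.6 in old fresh cells. A tag near the 3′ end can lie outside a deleted part, so these values check the genotype labels in neither direction, and genotypes are named as labelled. Young fresh WT replicate 1 had 0 counts of Xist and 141 of Ddx3y, while the other 11 libraries had 602 to 2257 counts of Xist and at most 21 of Ddx3y, so that library differs from the rest in sex. Among markers of the sorting gate and of stem cells, Kit, Ly6a, Cd34, Procr, Hlf, Mecom, Slamf1 and Fgd5 were each detected in every group.

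Levels below are in CPM scaled between libraries by TMM, and fold changes are log2 ± SE. These libraries read 1 tag per transcript near its 3′ end, so CPM was not divided by transcript length. Where 4 values are given for a condition, the first 2 are WT replicates 1 and 2 and the last 2 are KO replicates 3 and 4. The threshold for a gene to pass was an adjusted p under 0.05 in the quasi-likelihood test of edgeR, with Benjamini-Hochberg adjustment over all genes tested. All 47 genes passed the filter on low counts, 47 of 11548 genes tested over the 12 libraries. The comparisons of stimulated and of old cells share the young fresh libraries.

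The promoters of the 5 genes on which the 2 pooled comparisons turn are shown first, as the 250 bases before the transcription start (RefSeq, GRCm38.p6, the same assembly as mm10), each read 5′ to 3′ on the gene's own strand. Psma5 (chr3:108256676-108256925, plus strand) and Psmb8 (chr17:34197945-34198194, plus strand) were higher after stimulation, and Psma1 (chr7:114276117-114276366, minus strand) was lower. Psmc1 (chr12:100109952-100110201, plus strand) and Psmb5 (chr14:54617996-54618245, minus strand) were lower in old cells. Capitals mark a CCAAT box on either strand (ATTGG where it lies on the other strand) or, in Psmb5, the core of an antioxidant response element.
Psma5: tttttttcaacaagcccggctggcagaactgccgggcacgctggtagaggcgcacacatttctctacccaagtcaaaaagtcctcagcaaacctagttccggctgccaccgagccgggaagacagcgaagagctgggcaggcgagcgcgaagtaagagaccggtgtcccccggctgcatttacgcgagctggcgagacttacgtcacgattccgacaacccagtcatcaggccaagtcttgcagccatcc
Psmb8: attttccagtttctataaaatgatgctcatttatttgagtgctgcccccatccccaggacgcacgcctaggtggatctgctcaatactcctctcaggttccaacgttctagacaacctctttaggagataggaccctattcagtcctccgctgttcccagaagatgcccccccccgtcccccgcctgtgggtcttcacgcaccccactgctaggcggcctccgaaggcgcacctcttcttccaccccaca
Psma1: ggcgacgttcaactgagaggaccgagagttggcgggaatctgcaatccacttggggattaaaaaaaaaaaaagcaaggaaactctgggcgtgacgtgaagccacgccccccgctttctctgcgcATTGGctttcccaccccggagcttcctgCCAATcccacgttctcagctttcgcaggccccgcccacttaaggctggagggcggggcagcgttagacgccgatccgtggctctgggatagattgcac
Psmc1: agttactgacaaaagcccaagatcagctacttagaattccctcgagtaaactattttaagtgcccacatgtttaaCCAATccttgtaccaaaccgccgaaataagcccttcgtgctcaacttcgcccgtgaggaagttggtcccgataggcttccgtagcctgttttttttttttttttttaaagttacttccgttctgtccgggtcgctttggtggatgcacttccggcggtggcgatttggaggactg
Psmb5: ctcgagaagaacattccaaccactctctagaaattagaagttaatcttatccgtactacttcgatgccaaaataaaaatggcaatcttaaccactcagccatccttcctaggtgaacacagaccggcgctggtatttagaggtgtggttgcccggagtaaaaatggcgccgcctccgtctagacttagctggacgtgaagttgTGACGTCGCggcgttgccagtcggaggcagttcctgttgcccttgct

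Of the 47 genes, 39 had a window in the RefSeq promoter table. The antioxidant response element core, TGACNNNGC, is the kind of sequence bound by NFE2L1, the factor known for raising proteasome genes when proteasome activity is short. Searched on both strands, it was found in the windows of 5 of the 39 genes (Psmb5, Psmb6, Psmc6, Psmd12 and Psmd9), or 12.8%, against 10.15% of all 27025 windows. In the Psmb5 window it lies at -47 to -39 from the start. CCAAT was found in 13 of 39 windows (33.3%) against 34.46% of all, in Psma1 at -126 to -122 on the other strand and at -98 to -94, and in Psmc1 at -175 to -171. The interferon-stimulated response element was found in 3 of 39 (7.7%) against 3.04%, namely Psmb3, Psmd4 and Psmd9. The motif of nuclear respiratory factor 1 (NRF1), a different factor from NFE2L1, was found in 6 of 39 (15.4%) against 5.09%. Neither Psma5 nor Psmb8 held any of the 4 motifs in the bases shown. These are matches of letters and not sites of binding.

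Proteasome transcripts together made up a different share of each condition's counts. They were 0.793%, 0.733%, 0.699% and 0.706% of all counts in young fresh cells, 0.886%, 0.825%, 0.88% and 0.812% in stimulated cells, and 0.492%, 0.565%, 0.602% and 0.603% in old fresh cells. The 3 conditions did not overlap in that share, with stimulated cells highest and old cells lowest. After TMM scaling the summed level was 7958, 7340, 7006 and 7104 CPM in young fresh, 8228, 7629, 7892 and 7238 CPM in stimulated and 5443, 6434, 6568 and 6442 CPM in old fresh cells. On that scale young fresh and stimulated cells overlapped, and old cells stayed below both. The mean over stimulated libraries was 1.05 times that of young fresh ones, or 1.16 times by library totals alone, and the mean over old libraries was 0.846 times.

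The classes of subunit did not move in parallel. Summed levels of the 6 cap ATPases were 828 to 837 CPM in young fresh, 683 to 786 CPM in stimulated and 503 to 569 CPM in old cells, with no overlap between the conditions. The 5 immunoproteasome genes together had 430 to 519 CPM in young fresh, 690 to 847 CPM in stimulated and 366 to 580 CPM in old cells, so stimulated cells lay above both fresh conditions. Summed beta ring levels were 1163 to 1692 CPM, 1524 to 1699 CPM and 667 to 1105 CPM in the same order, and old cells lay below the others. The 7 alpha ring genes had 2559 to 3028 CPM in young fresh cells against 2186 to 2474 CPM in stimulated cells, with old cells at 2162 to 2735 CPM across both ranges. Assembly chaperones had 151 to 436 CPM in young fresh cells, across the other 2 ranges, and 382 to 414 CPM in stimulated cells against 280 to 364 CPM in old cells, without overlap. By library totals alone the cap ATPases of young fresh cells (827 to 832 CPM) fell within the range of stimulated cells (762 to 846 CPM), and the alpha ring ranges overlapped as well (2544 to 3024 CPM against 2452 to 2698 CPM). On that scale the beta ring of stimulated cells (1709 to 1829 CPM) lay above that of young fresh cells (1156 to 1685 CPM), while the old ATPase and beta ring sums stayed lowest and the immunoproteasome sums highest in stimulated cells.

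**Figure D1:**
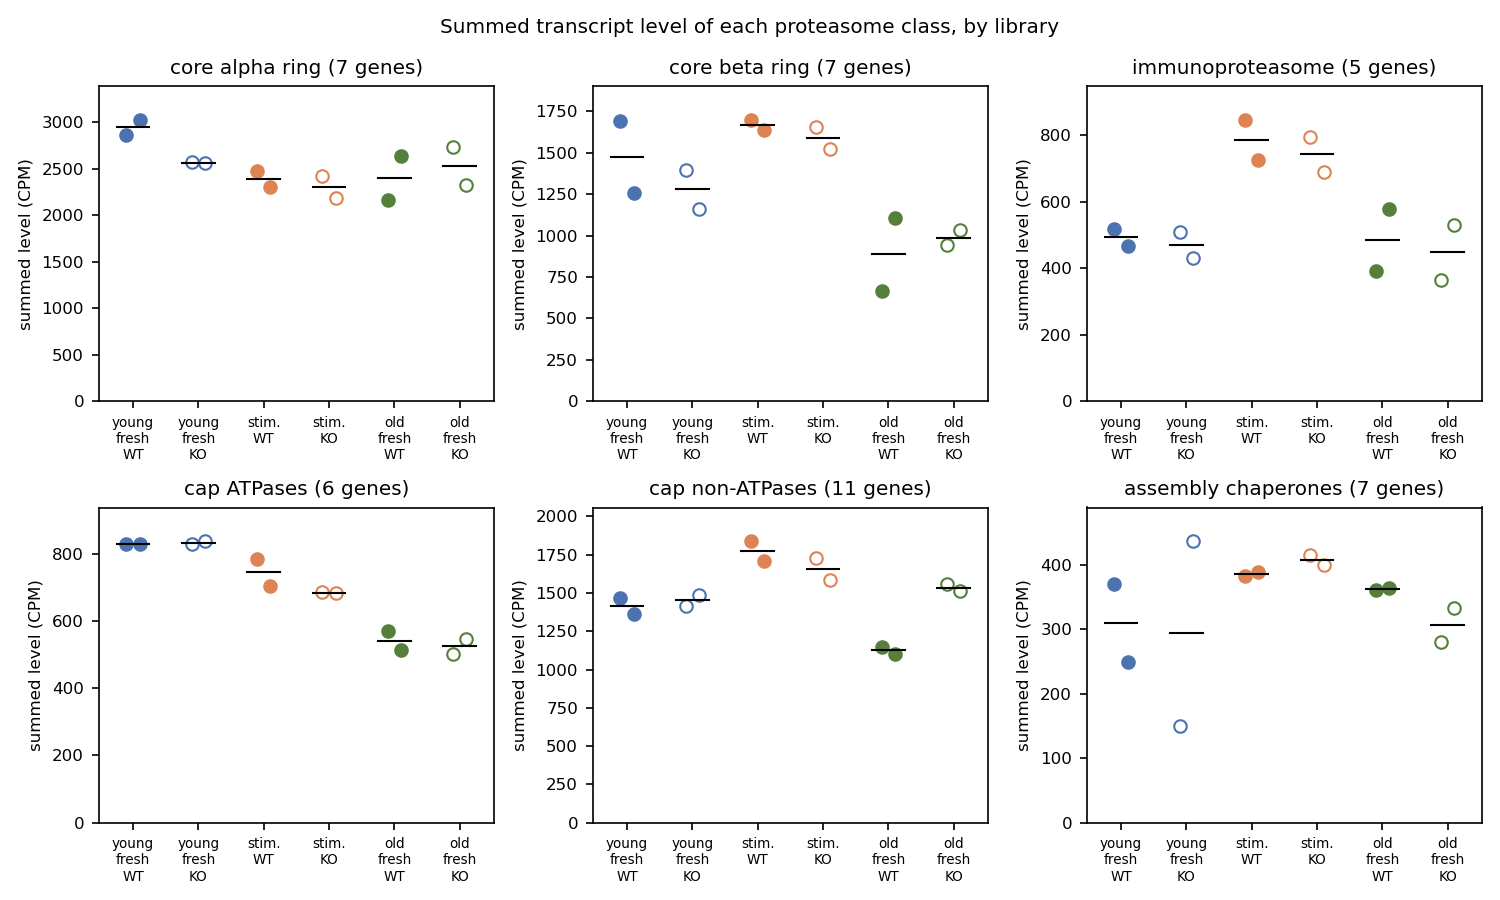
Summed level (CPM, linear axis from 0) of 6 classes of proteasome genes in each of the 12 libraries; points are libraries, filled for WT and open for KO, and bars are the means of 2. Cap ATPases fall into 3 separate bands, from 828 to 837 CPM in young fresh down to 503 to 569 CPM in old cells (by library totals young fresh and stimulated cells overlap), while the immunoproteasome genes are highest in stimulated cells.

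Within a class, levels ranged widely. Mean CPM over the 12 libraries ran from 119 (Psma6) to 782 (Psma1) in the alpha ring, from 24.6 (Psmb2) to 604 (Psmb1) in the beta ring and from 56.8 (Psme2) to 196 (Psmb8) among immunoproteasome genes. In the cap it ran from 49.2 (Psmc4) to 234 (Psmc6) for ATPases and from 38.3 (Psmd11) to 277 (Psmd1) for the other subunits. Assembly chaperones lay between 14 (Psmd9) and 79 CPM (Psmg4). Replicates of the members differed by a median of 0.12 (WT) and 0.165 (KO) on the log2 scale in stimulated cells, and by 0.45 to 0.887 in the fresh groups, so low members are poorly measured there. Psmf1, the proteasome inhibitor, was at 0 in young fresh KO replicate 3 and at 17.1 to 37 CPM in the other young fresh libraries.

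After 24 hours with cytokines outside the body, Psma5 and Psmb8 were higher and Psma1 was lower than in young fresh cells. No group was kept outside the body without cytokines, so culture and cytokines cannot be told apart. Over both genotypes, 3 of 47 genes (6.38%) passed against young fresh cells, 2 higher and 1 lower, beside 2.81% of all genes tested (1.31% higher and 1.51% lower). A further reading uses ranks alone: 11 members (23.4%) had all 4 stimulated libraries above all 4 young fresh ones, against 14.6% of all genes, and 2 (4.26%) had them all below, against 5.16%. The median change of the members was 0.33 and that of all genes tested 0.27, so the members as a list lay close to the rest. By library totals these medians were 0.47 and 0.41. With no filter on low counts they were 0.34 and 0.65, where the members' median was below that of all genes. It was also below with a replicate block (0.401 against 0.491) and with limma voom (0.444 against 0.585).

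Psma1 (mm10 chromosome 7, 114264550 to 114276116, minus strand), the member with the most counts, encodes a subunit of the alpha ring. It was at 909, 999, 966 and 1038 CPM in young fresh cells, 580, 569, 581 and 511 CPM in stimulated cells and 813, 826, 822 and 769 CPM in old cells. Every stimulated library lay below every fresh one, and the values within each condition lay close together. The fall was by 0.80 ± 0.13 on the log2 scale (edgeR adjusted p = 0.00358), and it passed in all 16 alternative settings, with adjusted p from 4.16e-10 (DESeq2) to 0.0419 (edgeR without stimulated KO replicate 4). In old cells the change was -0.28 ± 0.13 (edgeR adjusted p = 0.254), with all 4 old libraries below all 4 young ones.

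Psma5 (chromosome 3, 108256926 to 108279952, plus strand), another alpha subunit, went the opposite way. Its level was 85.3, 114, 123 and 113 CPM in young fresh, 295, 278, 270 and 247 CPM in stimulated and 51.8, 75.1, 45.7 and 82.8 CPM in old cells. Stimulated libraries were above all others, by 1.33 ± 0.27 over young fresh cells (edgeR adjusted p = 0.0123), and old libraries were below all young ones, where the change of -0.76 ± 0.26 did not pass (edgeR adjusted p = 0.114). The rise no longer passed without young fresh WT replicate 1, stimulated WT replicate 1 or stimulated KO replicate 3 (edgeR adjusted p = 0.0538, 0.0505 and 0.067). An exon of the antisense gene 1700010K24Rik overlaps Psma5 by 60 bases, and whether reads were counted by strand is not given in the sources used here.

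The 5 other alpha ring genes that did not pass went both ways, with Psma7 at -0.33 ± 0.20 (edgeR adjusted p = 0.429) and Psma6 at 0.40 ± 0.42 (edgeR adjusted p = 0.676). The class thus held both a rise and a fall that passed.

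**Figure D2:**
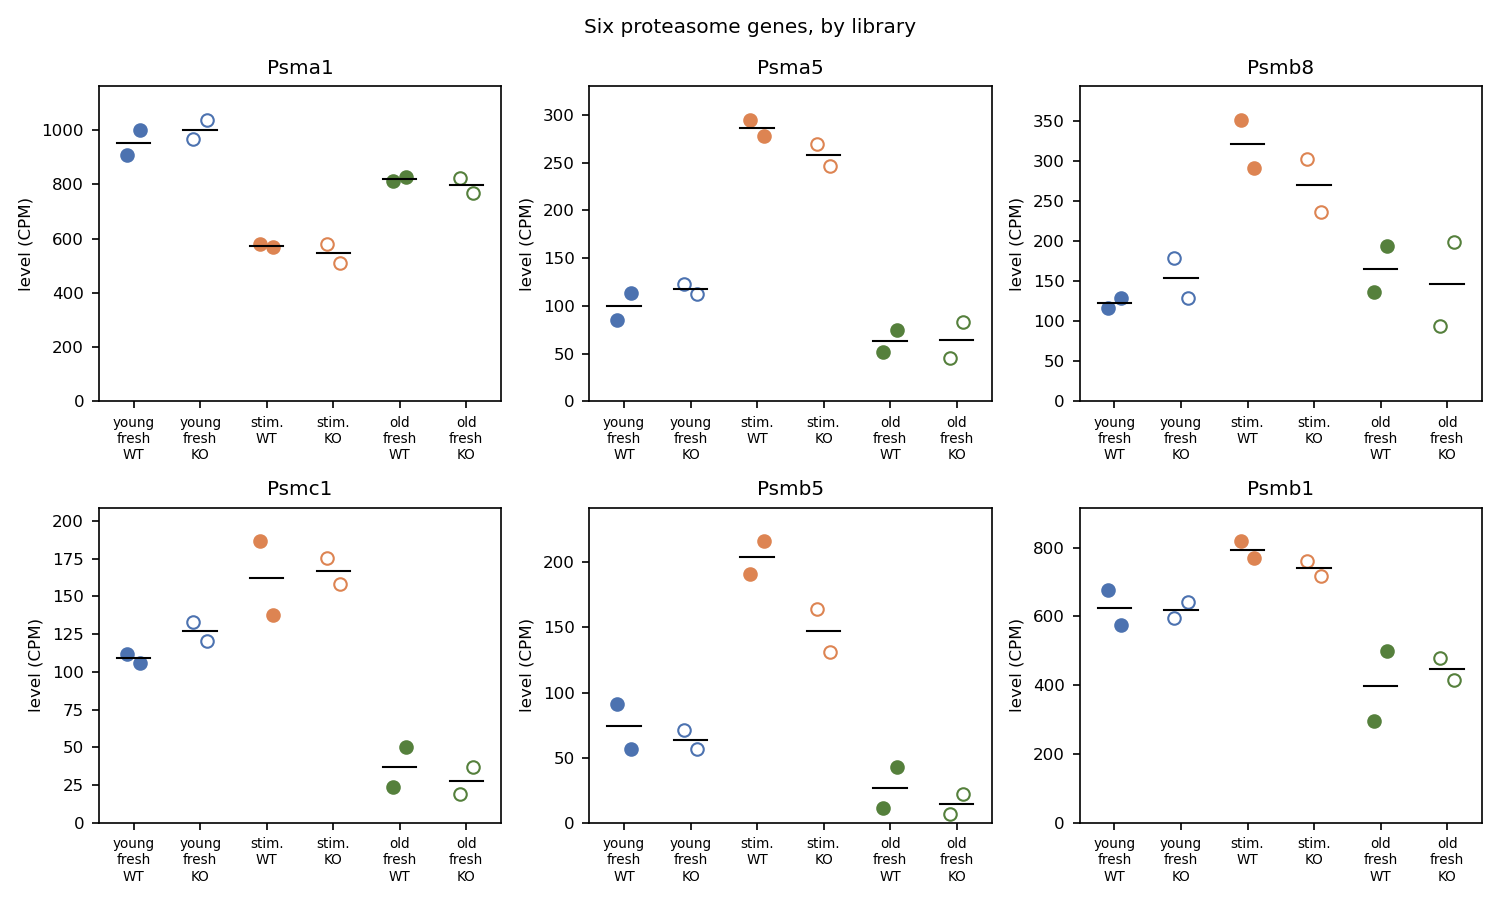
Level (CPM, linear axis from 0) of 6 proteasome genes in each library, filled for WT and open for KO, with a bar at the mean of 2. Psma1 is lowest and Psma5 and Psmb8 highest in stimulated cells, and Psmc1 and Psmb5 are lowest in the 4 old libraries.

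Among the inducible subunits, Psmb8 was the one that passed. Psmb8 (chromosome 17, 34198195 to 34201454, plus strand) replaces Psmb5 in the immunoproteasome and lies among the antigen presentation genes of the major histocompatibility complex. Young fresh cells had 116, 129, 179 and 128 CPM, stimulated cells 351, 291, 303 and 236 CPM, and old cells 136, 194, 94.1 and 198 CPM. Each stimulated library was above each fresh one, and old cells spanned the young fresh range. The rise was 1.10 ± 0.27 (edgeR adjusted p = 0.0365), but it did not pass when any of 7 of the 8 libraries was left out, with edgeR adjusted p from 0.0518 to 0.164; it passed without young fresh KO replicate 3. An exon of the antisense gene Gm20496 overlaps it by 259 bases at the longest.

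Psmb9 (chromosome 17, 34182030 to 34187330, minus strand), the inducible partner of Psmb6, was at 79, 65.7, 150 and 67 CPM in young fresh, 134, 154, 160 and 137 CPM in stimulated and 38.8, 75.1, 39.4 and 71.8 CPM in old cells. One young fresh KO library lay within the stimulated range, and the change was 0.73 ± 0.35 (edgeR adjusted p = 0.305). Its exons overlap those of Tap1, on the other strand, by 212 bases at the longest. Psmb10 (chromosome 8, 105935728 to 105938392), the partner of Psmb7, spread from 20.4 to 143 CPM in young fresh cells and from 83.2 to 112 CPM in stimulated ones, a change of 0.50 ± 0.46 (edgeR adjusted p = 0.61).

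Both genes of the interferon-inducible activator were measured as well. Psme1 (chromosome 14, 55578494 to 55581527) was at 107, 125, 67.4 and 125 CPM in young fresh and 201, 155, 181 and 173 CPM in stimulated cells, with no overlap, but its change of 0.75 ± 0.27 did not pass (edgeR adjusted p = 0.182). Psme2 had 42.4 to 92.9 CPM in young fresh and 43.9 to 51.6 CPM in stimulated cells, a change of -0.56 ± 0.44 (edgeR adjusted p = 0.548). Reads of Psme2 may be split with its near-identical copy Psme2b, which had 1793 counts over the 12 libraries against 1978 for Psme2, so both values are uncertain.

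The constitutive catalytic subunits were at higher levels after stimulation too, without passing. Psmb5, which cuts after hydrophobic residues, had 91.6, 56.6, 70.9 and 56.5 CPM in young fresh cells and 191, 216, 164 and 131 CPM in stimulated cells. These groups did not overlap, and the change was 1.34 ± 0.45 (edgeR adjusted p = 0.153). In Psmb6, which cuts after acidic residues, it was 0.78 ± 0.29 (edgeR adjusted p = 0.183), and in Psmb7, which cuts after basic residues, 1.90 ± 0.68 (edgeR adjusted p = 0.175). All 4 stimulated libraries were above all 4 young fresh ones in both. Levels were 181 to 210 CPM against 60.7 to 143 CPM for Psmb6, and 52.3 to 63.8 CPM against 3.57 to 23.4 CPM for Psmb7. The exons of Psmb7 overlap those of Nek6 on the other strand by 253 bases at the longest. In 3 of 16 other settings Psmb5 did pass, with edgeR adjusted p = 0.0226 on the 8 libraries of the comparison alone. Psmb6 passed in 1 setting (edgeR adjusted p = 0.0354 without young fresh KO replicate 3) and Psmb7 in 2 (adjusted p = 0.0354 with DESeq2 and 0.0489 with edgeR without young fresh KO replicate 4).

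The balance of inducible to constitutive catalytic subunits was read from their counts. Psmb8, Psmb9 and Psmb10 made up 56.9%, 59.6%, 61.9% and 66.2% of the counts of all 6 catalytic genes in young fresh cells, 56.8%, 53.2%, 57.9% and 56.4% in stimulated cells, and 61.2%, 59.4%, 53.9% and 71.3% in old cells. Exact 95% binomial (Clopper-Pearson) intervals ran from 53.7% to 60.1% in young fresh WT replicate 1 and from 69.4% to 73.1% in old fresh KO replicate 4, and they cover counting error only. All 3 conditions overlapped in this share.

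Pair by pair the ratios differed. Counts of Psmb8 over those of Psmb5 were 1.27, 2.28, 2.52 and 2.27 in young fresh, 1.84, 1.34, 1.84 and 1.80 in stimulated, and 12.2, 4.56, 14.5 and 8.96 in old cells. Every old library was above every young one, and this ratio rests on low Psmb5 counts in old cells (28 to 142 per library). Psmb9 over Psmb6 ran from 0.553 to 1.10 in young fresh, 0.641 to 0.884 in stimulated and 0.347 to 0.686 in old cells, and Psmb10 over Psmb7 from 3.29 to 6.71, 1.49 to 2.09 and 1.35 to 5.46. Stimulated cells were below young fresh cells in the last ratio, without overlap, and old cells overlapped both.

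**Figure D3:**
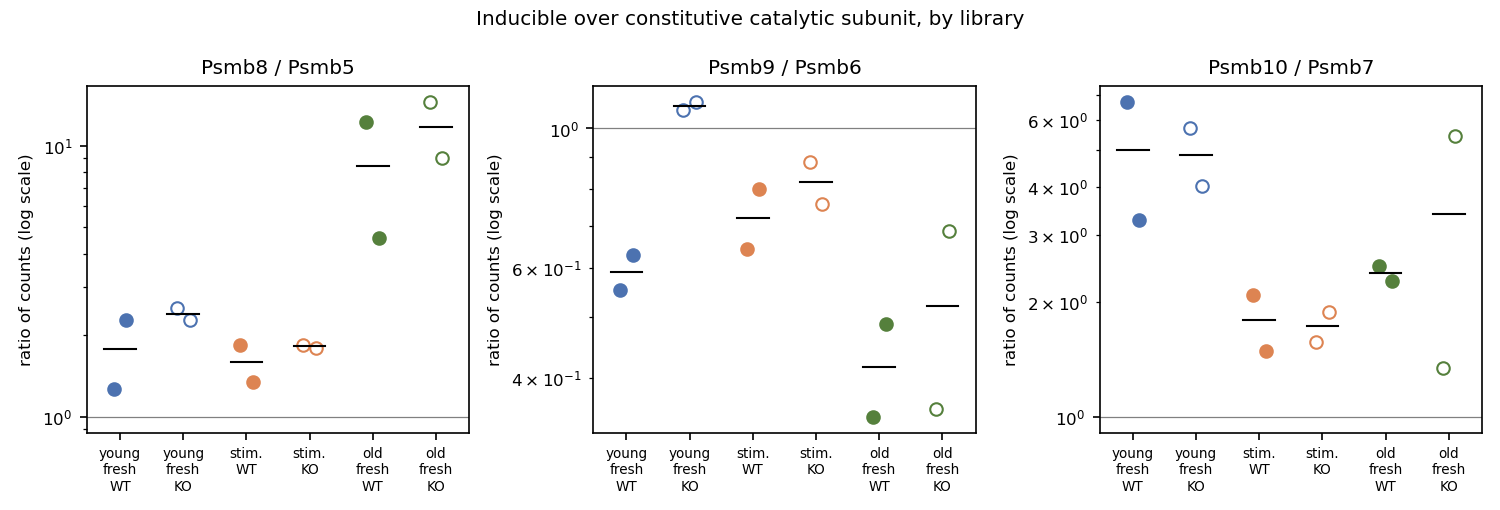
Ratio of counts of each inducible catalytic subunit to the constitutive one it replaces, per library, on log axes (filled for WT, open for KO; bars are means of 2). The Psmb8 to Psmb5 ratio is 4.56 to 14.5 in old cells and 1.27 to 2.52 in the 8 young libraries, while the other 2 ratios show no such step.

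Cap subunits did not pass after stimulation. Psmd2, a scaffold subunit of the cap base, had the largest rise among them, 1.20 ± 0.43 (edgeR adjusted p = 0.173), with 140.4 to 158 CPM in stimulated and 23.2 to 126 CPM in young fresh cells. Of the ATPases, Psmc1 was at 0.49 ± 0.33 and Psmc2 at -0.82 ± 0.30 (edgeR adjusted p = 0.475 and 0.183), so members of the same ring lay on both sides of 0. The alternative activators Psme3 and Psme4 had changes of 0.46 ± 0.58 and -0.37 ± 0.31, and the inhibitor Psmf1 one of 1.09 ± 0.92 (edgeR adjusted p = 0.737, 0.571 and 0.581). The Psmf1 value turns on 1 library: without young fresh KO replicate 4, which leaves the young fresh KO library at 0 counts, it was 5.27 and passed (edgeR adjusted p = 0.0213), a size that depends on the prior count.

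Within a genotype, 2 libraries against 2, no member passed. In WT, where 0.797% of all genes passed, the smallest p-values belonged to Psma5 at 1.53, Psma1 at -0.73 and Psmb8 at 1.39 (edgeR adjusted p = 0.102, 0.117 and 0.152), and 9 members (19.1%) had an unadjusted p under 0.05, against 9.48% of all genes. In KO, where 0.649% passed, they belonged to Psma1 at -0.88, Psma5 at 1.14 and Psmc6 at -0.73 (edgeR adjusted p = 0.0505, 0.251 and 0.369), and 7 members (14.9%) had an unadjusted p under 0.05, against 10.9% of all genes. DESeq2 called 3 members in WT and 1 in KO, beside 2.55% and 3.38% of all genes. The difference between the genotypes in the response to stimulation passed for no member and for 0% of all genes. The smallest p-values there were those of Psmd14 at -1.41 and Psma7 at 0.90 (both edgeR adjusted p = 0.885), and 2 members (4.26%) had an unadjusted p under 0.05, against 5% of all genes.

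Old stem cells had less Psmc1 and less Psmb5 than young fresh ones. Over both genotypes 2 of 47 members passed, both lower (4.26%), beside 2.16% of all genes lower and 5% in either direction, and none passed higher, beside 2.83% of all genes. In 7 members (14.9%) all 4 old libraries were below all 4 young fresh ones, against 3.33% of all genes, and in none were they all above, against 4.51%. The median change was -0.40 over the members and 0.05 over all genes, and 31 of 47 members (66%) had a negative change, against 47.5% of all genes. These calls did not hold in fits that give the fresh libraries a spread of their own: with the 8 fresh libraries alone, or with limma voom and a weight per group, no member passed.

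Psmc1 (chromosome 12, 100110202 to 100123364, plus strand) encodes an ATPase of the ring that opens the core and unfolds the substrate. Its level was 112, 106, 133 and 120 CPM in young fresh cells, 187, 138, 176 and 158 CPM in stimulated cells and 23.4, 50.1, 18.8 and 37 CPM in old cells. The old libraries lay far below the other 8, though replicates of old cells differed by 2.14 times in WT and 1.97 times in KO. It fell by 1.88 ± 0.34 (log2, edgeR adjusted p = 0.00422). With the 8 fresh libraries alone the adjusted p was 0.0599 and with limma voom 0.0903, and in the other 14 settings it passed.

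Psmb5 (chromosome 14, 54614120 to 54617995, minus strand) had 11.2, 42.6, 6.49 and 22.1 CPM in old cells, where young fresh cells had at least 56.5 CPM. All old libraries were below all others, and the spread between old replicates was wide, 3.82 times in WT and 3.41 times in KO. The gene fell by 1.81 ± 0.46 (log2, edgeR adjusted p = 0.0353), and the call was lost in 7 of 16 settings. These were the fresh libraries alone (adjusted p = 0.312), limma voom (0.237), and leaving out young fresh WT replicate 1 or 2, young fresh KO replicate 3, old fresh WT replicate 1 or old fresh KO replicate 3 (0.0535 to 0.122). An exon of the microRNA gene Mir686, on the same strand, overlaps Psmb5 by 109 bases at the longest.

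**Figure D4:**
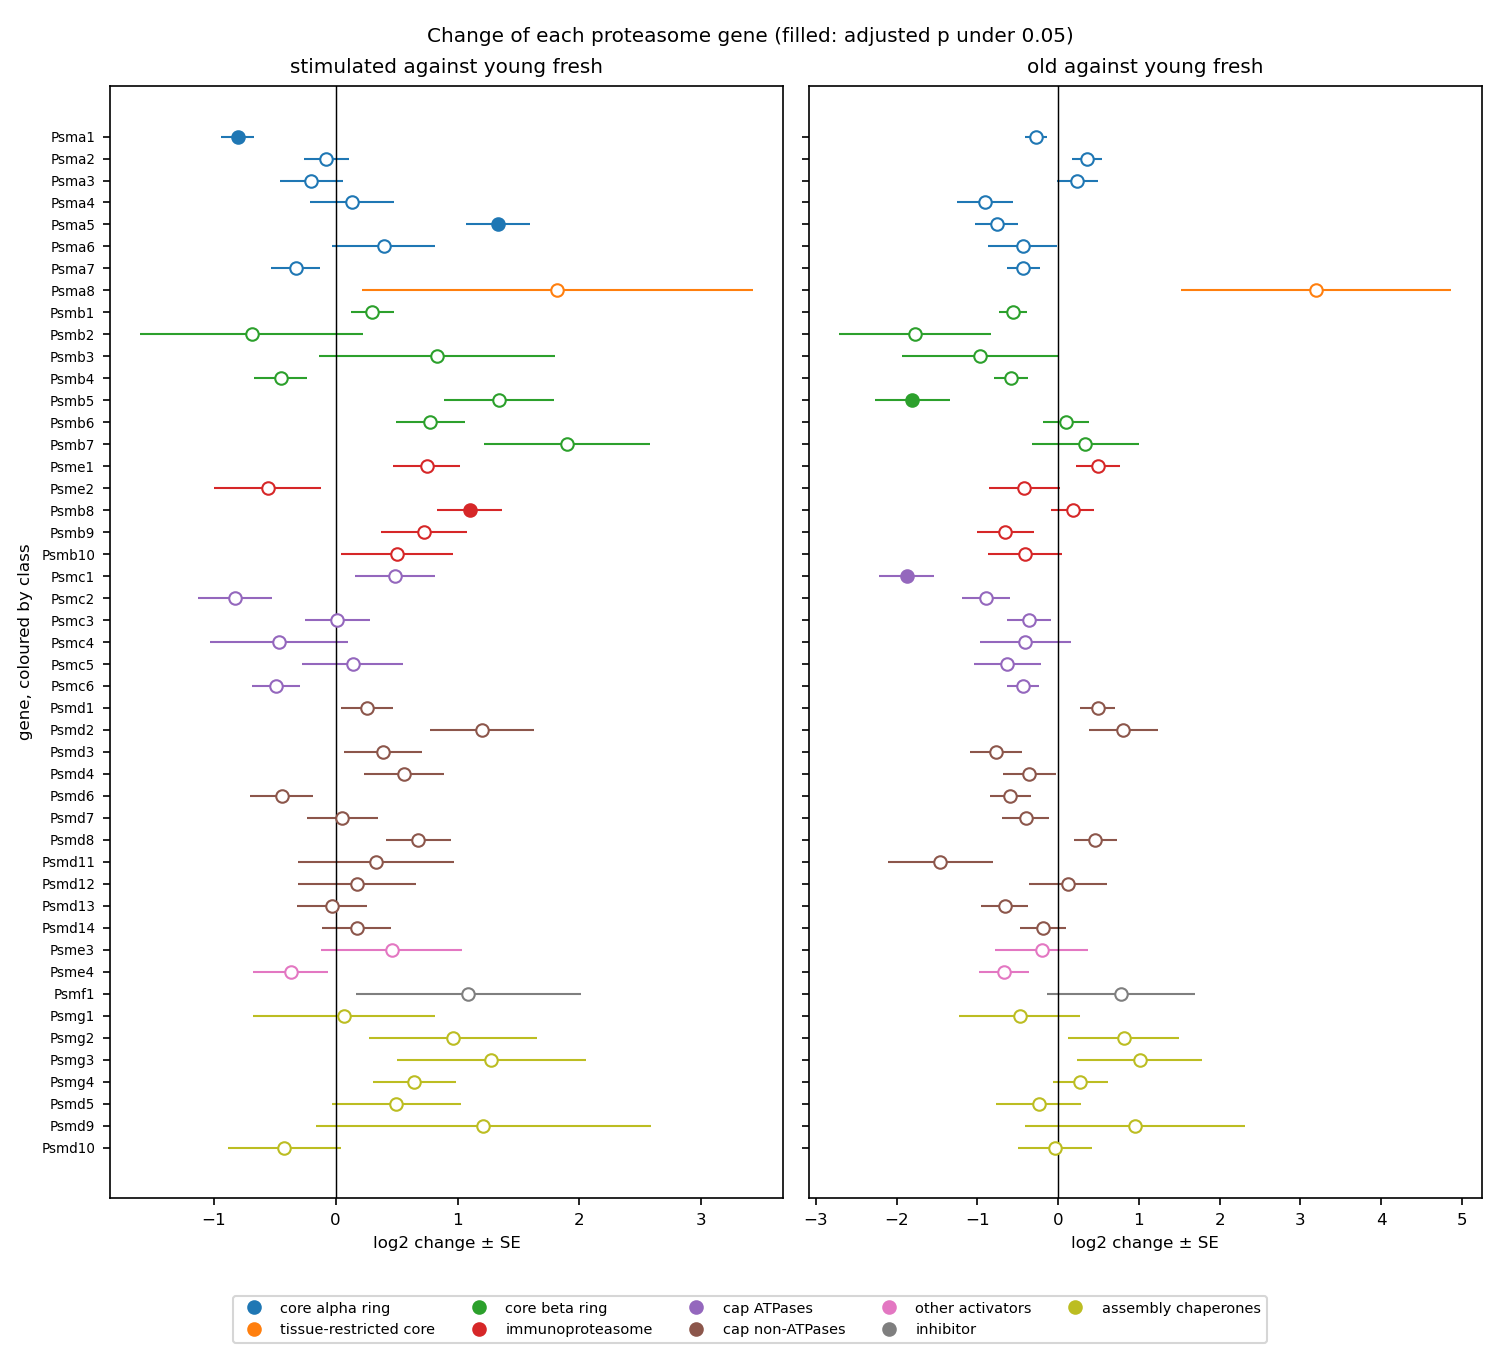
Log2 change ± SE of each of the 47 genes after stimulation (left) and in old cells (right), both against young fresh cells and over both genotypes, coloured by class; filled points passed at an adjusted p under 0.05. Psma1, Psma5 and Psmb8 are filled on the left, and Psmc1 and Psmb5 on the right. All 6 cap ATPases lie left of 0 in old cells, though Psmc3, Psmc4, Psmc5 and Psmc6 overlapped between young fresh and old libraries.

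The remaining core and cap genes were mostly at lower values in old cells, without passing. Psmb1, of the beta ring, was at 677, 574, 594 and 642 CPM in young fresh and 296, 499, 480 and 414 CPM in old cells, with no overlap (-0.56 ± 0.18, edgeR adjusted p = 0.0826). It passed in 4 of 16 other settings, by library totals, with no filter, with DESeq2 and without old fresh WT replicate 2 (adjusted p = 0.027, 0.0455, 0.0144 and 0.0139). All 6 cap ATPases had a negative change, from -0.36 to -1.88, and 1 of them passed. Over all genes 47.5% had a negative change and 2.16% passed lower. Psmc3, Psmc4, Psmc5 and Psmc6 overlapped between young fresh and old cells (edgeR adjusted p = 0.492, 0.775, 0.418 and 0.225). Psmd11, a scaffold of the cap's lid, was at 27.2 to 58.3 CPM in young and 1.85 to 25.5 CPM in old cells (-1.46 ± 0.66, edgeR adjusted p = 0.22). Psmd1 and Psmd2 of the cap base had positive values, 0.49 ± 0.22 and 0.81 ± 0.43 (edgeR adjusted p = 0.211 and 0.301).

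The inducible subunits and activators showed no call with age. Psmb8 was at 0.18 ± 0.26, Psmb9 at -0.65 ± 0.36 and Psmb10 at -0.41 ± 0.46 (edgeR adjusted p = 0.795, 0.317 and 0.689). Psme1 was at 0.49 ± 0.27, Psme2 at -0.42 ± 0.44, Psme3 at -0.21 ± 0.58, Psme4 at -0.67 ± 0.31 and Psmf1 at 0.78 ± 0.92, with edgeR adjusted p from 0.23 to 0.948. Without young fresh KO replicate 4 the Psmf1 value was 4.94 and passed (edgeR adjusted p = 0.0187), and 2 members then passed higher. The constitutive Psmb6 and Psmb7 had values near 0, at 0.10 ± 0.28 and 0.34 ± 0.66 (edgeR adjusted p = 0.947 and 0.878), and the sign of Psmb6, Psmb7, Psmb8, Psmb10 and Psme3 changed in 1 or more alternative settings. Of the catalytic genes, Psmb5 was thus the one that passed, and its difference from the other 2 was not tested.

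Psma8, the alpha subunit otherwise known from the testis, was at 0, 10.9, 1.02 and 0 CPM in young fresh, 13, 0.66, 3.31 and 7.62 CPM in stimulated and 6.11, 21.9, 7.42 and 28.8 CPM in old cells. Counts were at most 139 in a library, young and old overlapped, and the change of 3.20 ± 1.68 did not pass (edgeR adjusted p = 0.297).

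Age was also compared within each genotype. In WT 1 of 47 members passed, lower, beside 0.727% of all genes lower (1.78% in either direction). This was Psma7 (chromosome 2, 180036367 to 180042464), an alpha subunit, at 815 and 614 CPM in young and 231 and 377 CPM in old WT cells, against 365 and 394 CPM in young and 598 and 383 CPM in old KO cells. It fell in WT by 1.23 ± 0.29 (log2, edgeR adjusted p = 0.0433), a call lost in 5 of 12 settings. Those were the 4 libraries alone and limma voom (adjusted p = 0.258 and 0.119), and leaving out young fresh WT replicate 1 or 2 or old fresh WT replicate 1 (0.069 to 0.226). In KO 1 member passed, Psmc1, by -2.18 ± 0.48 (edgeR adjusted p = 0.0319), beside 0.632% of all genes lower and 1.19% higher (1.82% in either direction), and this call was lost in 4 of 12 settings: the 4 libraries alone, limma voom, and without young fresh KO replicate 3 or old fresh KO replicate 3 (adjusted p = 0.0752 to 0.396).

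A difference between the genotypes in the change with age was not shown for any member, beside 0.0346% of all genes. Psma7 came closest, with an interaction of 1.60 ± 0.41 (edgeR adjusted p = 0.234), followed by Psmd13 at 1.68 (edgeR adjusted p = 0.312), and 3 members (6.38%) had an unadjusted p under 0.05, against 12.2% of all genes. DESeq2 and the fit with no filter on low counts each called Psma7 (adjusted p = 0.0154 and 0.0246), beside 2.74% and 0.505% of all genes.

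Between KO and WT no proteasome gene passed in any condition. In stimulated cells, fitted on their own 4 libraries because these vary least, 1.23% of all 10494 genes passed and the members' changes ran from -0.56 to 0.34 with a median of 0.01. When this comparison was fitted on all 12 libraries, 0% of all genes passed. Psmc2, an ATPase of the cap, had 99.1 and 94.4 CPM in stimulated WT and 55.7 and 73.5 CPM in stimulated KO, without overlap, at -0.56 ± 0.20 (edgeR adjusted p = 0.252). Psmb5 had 191 and 216 CPM against 164 and 131 CPM, at -0.44 ± 0.16, and Psmd3 of the lid was at -0.38 ± 0.14 (edgeR adjusted p = 0.259 and 0.276). Changes of the inducible genes Psmb8, Psmb9, Psmb10, Psme1 and Psme2 were -0.23 ± 0.15, 0.07 ± 0.16, 0.05 ± 0.19, 0.02 ± 0.16 and 0.10 ± 0.22. An unadjusted p under 0.05 was found for 3 members (6.38%), against 10.9% of all genes.

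In fresh cells the estimates were far wider. In young fresh cells, where 0.026% of all genes passed, the smallest p-values were those of Psmd14, the cap's deubiquitinase, at 1.49 (74.6 and 72.6 CPM in WT, 165 and 249 CPM in KO), Psma7 at -0.91 and Psmc3 at -0.91 (edgeR adjusted p = 0.276, 0.365 and 0.452). DESeq2 called Psmd14 there (adjusted p = 0.0415), beside 2.77% of all genes. In old fresh cells, where 0.0433% passed, they were those of Psmd13 at 1.02, Psma7 at 0.69 and Psmd7 at 0.90 (edgeR adjusted p = 0.411, 0.426 and 0.446). Each of these comparisons had 3 members (6.38%) with an unadjusted p under 0.05, against 10.7% of all genes in young and 11.1% in old fresh cells. Psmd13 was at 71.2 and 76 CPM in old WT and 214 and 84.8 CPM in old KO cells. Its exons overlap those of Sirt3 on the other strand by 329 bases at the longest.

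**Figure D5:**
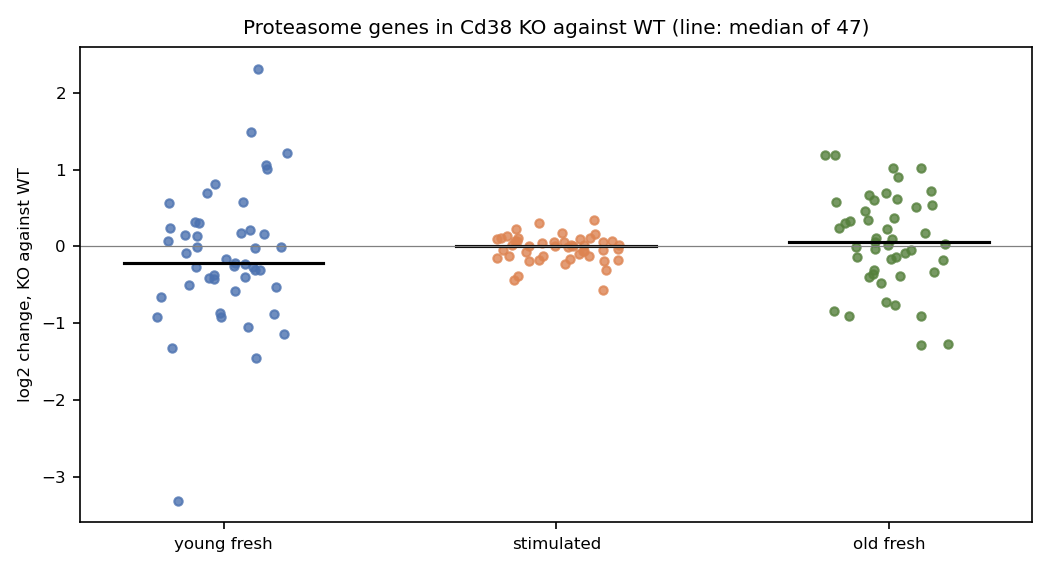
Log2 change of each of the 47 genes in KO against WT cells, per condition; each point is a gene, spread sideways at random, and the line is the median. Points lie between -0.56 and 0.34 in stimulated cells and are spread far wider in both fresh conditions.

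Genes that work with the proteasome but carry other symbols were read from a list of assembly factors, ubiquitin shuttles and ubiquitin genes, of which 27 of 31 could be tested. After stimulation none passed, beside 2.81% of all genes, and the median change was 0.20, against 0.27 over all genes. Pomp, the chaperone that completes the core, was at 0.42 ± 0.14 (edgeR adjusted p = 0.149). In old cells 2 genes of the list passed higher and 1 lower, beside 2.83% and 2.16% of all genes. Among these, Vcp rose and Ubqln2 fell. Vcp, the ATPase that pulls ubiquitin-tagged proteins out of complexes, was at 581 to 923 CPM in young fresh and 2447 to 2774 CPM in old cells (1.73 ± 0.13, edgeR adjusted p = 3.54e-06). Ubqln2, a shuttle that brings tagged proteins to the proteasome, fell by 1.08 ± 0.28 (edgeR adjusted p = 0.0394). The median change of the list with age was 0.13, above the -0.40 of the proteasome genes and beside 0.05 over all genes. In stimulated cells, fitted on their own libraries, 1 gene of the list passed between genotypes, Zfand5, known to activate the proteasome. It was at 213 and 186 CPM in WT and 289 and 318 CPM in KO (0.63 ± 0.14, edgeR adjusted p = 0.0406). When this comparison was fitted on all 12 libraries, 0% of all genes passed, so the Zfand5 call was lost. Its values with a library left out are not given here.

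The genes that handle the proteasome's peptides for antigen presentation, with their interferon factors, formed a list of 16, all tested. After stimulation 2 passed higher, beside 1.31% of all genes. Tap2, part of the peptide transporter, went from 22.6 to 57.1 CPM in young fresh to 215 to 309 CPM in stimulated cells (2.45 ± 0.38, edgeR adjusted p = 0.00259). Pdia3, a chaperone of peptide loading, rose by 0.84 ± 0.18 (edgeR adjusted p = 0.0179). The list's median change was 0.43, against 0.27 over all genes. Within genotypes it was 0.78 in WT and 0.08 in KO, against 0.12 and 0.18 over all genes. In WT 2 genes of the list passed and in KO 0, beside 0.797% and 0.649% of all genes. The difference between the genotypes in this response passed for 0 genes of the list. In old cells Calr, another loading chaperone, fell by 1.86 ± 0.19 (edgeR adjusted p = 3.4e-05), from 579 to 761 CPM to 151 to 200 CPM. It was the 1 gene of the list that passed lower, beside 2.16% of all genes. No gene of the list passed higher, beside 2.83% of all genes. Irf8 is an interferon factor and also a marker of monocyte and dendritic precursors. It had 75.2 and 74.6 CPM in stimulated WT and 35.6 and 26.8 CPM in stimulated KO cells (-1.23 ± 0.23, edgeR adjusted p = 0.0162). The Irf8 call came from the fit on the stimulated libraries alone. It was lost in the fit on all 12 libraries, where 0% of all genes passed. Its values with a library left out are not given here. Both lists were chosen with earlier results of these data known.

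Markers of other cells moved with the same comparisons. The summed level of 9 neutrophil genes, granule genes of progenitors among them, was 5094 to 9667 CPM in young fresh, 2266 to 3983 CPM in stimulated and 424 to 3284 CPM in old cells, with none of the 9 at 0 in any group. These genes went both ways after stimulation. Elane, Mpo, Prtn3 and Ctsg were higher, with Mpo at 35.1 to 62.8 CPM in young fresh and 545 to 1090 CPM in stimulated cells. S100a8, S100a9, Ngp, Ltf and Camp were lower, with S100a8 at 2534 to 5682 CPM and 524 to 990 CPM. The 8 lymphoid-primed and B cell markers summed to 711 to 1474 CPM in stimulated WT, 142 to 213 CPM in stimulated KO and 22.6 to 62.3 CPM in the fresh groups, where 2 to 6 of them were at 0. Megakaryocyte markers, 6 in all, summed to 1395 to 2373 CPM in old KO against 146 to 612 CPM in the other groups. Most of the old KO sum was Pf4, at 2078 and 1232 CPM, and Itga2b was also highest there (207 and 149 CPM). Gp1ba was at 0 in both old KO libraries, and Ppbp was at 41.25 and 0 CPM. Gp9 was at 29.9 and 10.6 CPM in old KO, between old WT replicates 1 and 2 (39.6 and 0.901 CPM). Vwf was at 16.9 and 4.34 CPM in old KO, also between old WT replicates 1 and 2 (57.4 and 0 CPM). The part of these differences in the changes of proteasome genes was not tested, and in bulk RNA fewer cells of a type and less RNA per cell cannot be told apart.

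The genes whose log2 CPM over the 12 libraries was most like the mean log2 CPM of the 47 members, among genes of at least 20 CPM, were Mtfr1, Metrn, Snrnp200, Cd52 and Igfbp4, with Pearson r of 0.903 to 0.908. None of them is a proteasome gene, and the closest members were Psma5 (r = 0.882) and Psmb5 (r = 0.880), which enter that mean themselves. Other members ran against it, down to r = -0.526 for Psma2 and -0.696 for Psma1, the member with the most counts. The mean therefore does not stand for each of the 47 genes. The 12 points share 3 conditions and their depths, so these values describe the libraries and carry no test.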

How the data were processed

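Per the labels' protocols, RNA was purified on columns and turned into QuantSeq 3′ FWD libraries. Each deposited file holds 1 raw count of reads per gene symbol, made by the authors against mm10; the submitters' processing notes name HISAT2 2.2.1, HTSeq 0.9.1 and DESeq2 1.34.0. The annotation, strand setting and read filters are not given in the sources used here. The 12 libraries held 1600155 to 5164720 counts.

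Tests were run with edgeR 4.0.16 in R 4.3.3, using TMM scaling, filterByExpr (minimum count 10, minimum total 15), a quasi-likelihood test and Benjamini-Hochberg adjustment at 0.05. All 12 libraries in 6 groups shared a spread (11548 genes, 6 residual and 8.68 prior degrees of freedom); KO against WT in stimulated cells used its 4 libraries (10494 genes, 2 and 13). No replicate block entered these fits. As an alternative, KO against WT in stimulated cells was also fitted on all 12 libraries. Alternatives were RLE scaling, library totals, no filter, the libraries of a comparison alone, a replicate block, DESeq2 1.42.0, limma 3.58.1 voom with a weight per group, each library left out in turn and, added after the data were seen, thinning to 1600155 counts. A prior count of 2 entered log2 CPM for the likeness.

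The members, lists and tests were chosen with earlier results of these data known. Genes were named by rule: the catalytic, inducible, activator and inhibitor genes always; per comparison the 5 largest rises and falls that passed, or the 3 smallest p-values where fewer than 3 passed; in interactions the 2 smallest; per class the highest and lowest mean CPM; of each linked list up to 5 that passed per direction; and the 5 most alike. Psmb1, Psmc2, Psmd2, Psmd11, Psma8, Psmd1 and Pomp in the pooled comparisons, Psma6 and Psma7 after stimulation, and the values of Psmb5 and Psma5 in further comparisons were named after their values were seen where the rule did not give them. Some listed genes are not reported here. Positions come from RefSeq (GRCm38.p6) and exon overlaps from GENCODE M21. Each overlap is the longest one between an exon of the member and an exon of the other gene.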

Additional observations from a re-analysis of the deposited data

How the results depend on the processing

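The number of members that passed changed with the processing as follows. With RLE scaling 1 passed after stimulation in KO, beside 0.753% of all genes. With no filter on low counts 5 passed after stimulation (1 in WT, 1 in KO), beside 3.29% (1.16%, 1.52%) of all genes. That fit also called 4 with age (2 in WT, 2 in KO), beside 6.12% (2.67%, 3.01%). In the interaction of genotype and age it called 1, beside 0.505%. On the libraries of a comparison alone, 0 passed with age, also within WT and within KO, beside 2.72% (0.3% and 0.054%) of all genes. With limma voom and a weight per group 0 passed with age too, beside 2.2% (0.598% and 0.364%). After stimulation voom called 1 in WT and 1 in KO, beside 2.25% and 1.04% of all genes. DESeq2 called 3 after stimulation in WT, 1 in KO, 4 with age (5 in WT, 3 in KO), 1 between genotypes in young fresh cells and 1 in the interaction with age, beside 2.55%, 3.38%, 12% (6.68% and 8.1%), 2.77% and 2.74% of all genes. Over both genotypes the libraries alone, the replicate block, DESeq2 and voom each called 4 after stimulation, beside 4.12%, 4.05%, 6.7% and 6.17% of all genes. Library totals called 3 with age, beside 5.01%. Thinned to equal depth, 1 passed after stimulation in KO, beside 0.906% of all genes. The cause of these changes was not tested. The replicate block gave 1 after stimulation in KO, 2 with age in WT and 2 in KO, beside 1.75%, 2.91% and 3.13% of all genes. Deviations of same-numbered libraries from their group means had correlations of -0.007 to 0.012. With 2 libraries in a group these deviations mirror each other, and fresh replicates vary widely. These correlations therefore cannot show whether the numbers pair the libraries. Number 1, however, joined WT libraries that differ in sex. Counts of Xist and Ddx3y were 0 and 141 in young fresh, 1834 and 1 in stimulated and 1030 and 0 in old fresh WT replicate 1. The young fresh one thus did not come from the same animals as the others, and for number 1 the replicate block matches unlike libraries. Leaving out 1 library gave 1 to 6 members after stimulation (0 to 0 in WT, 0 to 1 in KO), 1 to 5 with age (0 to 3 in WT, 0 to 3 in KO) and 0 between genotypes and in both interactions; the count was 1 after stimulation without young fresh WT replicate 1 (the library of the other sex), stimulated WT replicate 1 or stimulated KO replicate 3, and 6 without young fresh KO replicate 3 or 4, while with age it was 1 without young fresh WT replicate 1 or 2, young fresh KO replicate 3, old fresh WT replicate 1 or old fresh KO replicate 3, 4 without young fresh KO replicate 4 or old fresh KO replicate 4, and 5 without old fresh WT replicate 2. By library totals the summed levels after stimulation were 1.16 times young fresh for all members, 0.938 for the alpha ring, 0.946 for cap ATPases and 1.32 for other cap subunits, and in old cells 0.585 for cap ATPases. With age, Psmb6 changed sign by library totals (-0.036) and when thinned (-0.048), and leaving out 1 library turned 5 genes: Psmb6 ran from -0.15 to 0.46 (negative without young fresh WT replicate 2, young fresh KO replicate 4 or old fresh WT replicate 2), Psmb7 from -0.03 to 1.08 (negative without young fresh KO replicate 3), Psmb8 from -0.15 to 0.39 (negative without old fresh KO replicate 4), Psmb10 from -0.96 to 0.13 (positive without young fresh KO replicate 4) and Psme3 from -0.81 to 0.21 (positive without young fresh KO replicate 4 or old fresh KO replicate 4). The median change of the members kept its sign in all 8 settings other than left-out libraries, at 0.27 to 0.47 after stimulation and -0.34 to -0.53 with age. In the same settings the median of all genes ran from 0.189 to 0.651 after stimulation and from -0.063 to 0.062 with age.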
